A study of Homo sapiens with 6 samples.

Results

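The genes described here are 48 receptor tyrosine kinases, taken by gene symbol from the 20030 gene names of a count table of KGN cells. All 48 symbols were found. KGN is a human cell line from a granulosa cell tumour of the ovary. The cells had been transfected with siRNA that targets the long noncoding RNA SNHG5 (SNHG5 siRNA, 3 libraries), or with a negative control siRNA (control siRNA, 3 libraries), and RNA was taken 48 h later. All 6 libraries came from this single line. Whether replicates were separate cultures is not said in the sources used here, and the p-values therefore describe the spread of these libraries, which may be technical.

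Receptor tyrosine kinases span the cell membrane. A growth factor, or a matrix or membrane protein outside the cell, brings receptors together, the kinase domains inside phosphorylate each other on tyrosine, and adaptor proteins bind there and start the RAS-ERK and PI3K-AKT pathways. In the ovary, the insulin and IGF receptors of granulosa and theca cells, KIT on oocytes, VEGF receptors of the follicular vessels and EGF-family signalling at ovulation are known examples. Because RNA was measured in bulk, fewer cells that express a gene and less RNA per cell cannot be told apart.

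Total counts were 19417645 to 22088913 with SNHG5 siRNA and 18232634 to 20479618 with control siRNA. A count of 3, taken as the limit of detection (counting error only), was 0.136 to 0.165 CPM (the count scaled to library size) in a library. SNHG5 siRNA replicate 2 stood apart: a chi-square over its degrees of freedom was 8.61 and 8.81 between it and the others of its group, 1.91 between those others, and 3.10 to 4.41 between control libraries. Across genes, its deviation from the group mean had a Spearman correlation of -0.494 with transcript length, against -0.250 to 0.396 in the other 5 libraries. SNHG5 itself was not analysed here. Of 14 granulosa markers 10 were at testable levels, among them FOXL2, a defining transcription factor of granulosa cells, at 28.6 ± 4.33 CPM with SNHG5 siRNA and 25.3 ± 1.40 CPM with control siRNA (SD, n = 3 each, as for every mean here). INHA, CYP19A1, HSD17B1 and AMHR2 were at or near 0. The 14 genes summed to 256.4 to 267.2 CPM with SNHG5 siRNA and 270.1 to 277.0 CPM with control siRNA. Of the 10 at testable levels 1 rose and 3 fell at an edgeR adjusted p under 0.05. That is 40%, against 40.2% of all tested genes.

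Receptor levels per transcript length were compared in the authors' FPKM (fragments per kilobase of gene, scaled to depth). AXL, a receptor for the vitamin K-dependent ligand GAS6, was the highest at 287.4 ± 2.45 FPKM with SNHG5 siRNA and 278.2 ± 4.91 FPKM with control siRNA. It made up 54.5% of the summed FPKM of the 48 receptors with SNHG5 siRNA and 51.7% with control siRNA. EPHA2, an ephrin-A receptor, came next at 41.8 ± 3.52 FPKM with SNHG5 siRNA and 49.1 ± 1.54 FPKM with control siRNA. The HGF receptor MET had 27.7 ± 2.03 FPKM with SNHG5 siRNA and 36.5 ± 0.864 FPKM with control siRNA, and DDR2, a receptor for fibrillar collagen, had 23.8 ± 2.96 FPKM with SNHG5 siRNA and 23.4 ± 1.74 FPKM with control siRNA. The libraries of AXL and of EPHA2 lay above those of the next receptor in both groups. MET was above DDR2 in every library, though their ranges touched at 25.63 FPKM with SNHG5 siRNA. Further down, the ranges of the neighbours PTK7 and EPHB4, EPHB4 and RYK, DDR1 and FGFR1, and EPHA5 and IGF1R overlapped in both groups. Compared within each library, EPHA5 was above IGF1R throughout. PTK7 was above EPHB4, and DDR1 above FGFR1, in every control library, but not in every SNHG5 siRNA library. The order itself differed between groups for some neighbours. EPHB2 lay above ERBB2, and TYRO3 above PDGFRB, in all libraries with SNHG5 siRNA, and below them in all libraries with control siRNA. In all, 22 receptors averaged at least 1 FPKM and 26 averaged less.

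**Figure D1:**
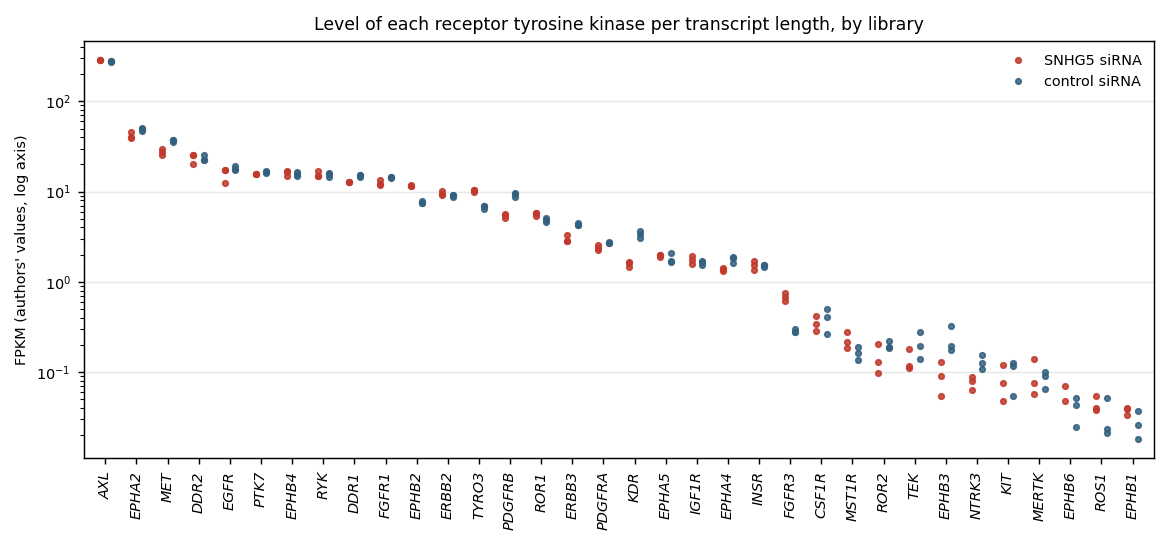
The authors' FPKM (log axis) of the receptors with a mean of at least 0.02 FPKM, ordered by mean level, with a point for each library (SNHG5 siRNA red and left, control siRNA blue and right of each tick). AXL stands apart from EPHA2 in all 6 libraries, and a step lies between INSR and FGFR3, below which all receptors average under 1 FPKM; a library at 0 FPKM has no point.

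Of the 48 receptors, 32 were at testable levels, and 16 of these passed at an adjusted p under 0.05 (edgeR quasi-likelihood test, adjusted over all 12508 tested genes). With SNHG5 siRNA 5 rose, namely FGFR3, EPHB2, TYRO3, ROR1 and EPHA5, and 11 fell, namely EPHB3, KDR, PDGFRB, NTRK3, ERBB3, MET, EPHA2, DDR1, EPHA4, FGFR1 and PTK7. Among all tested genes 20.3% rose and 19.9% fell. Thus 50% of the tested receptors passed, against 40.2% of all tested genes, and the median log2 fold change was -0.14 for the receptors and -0.01 for all tested genes. The ranges of the groups lay apart in 18 of the 32 receptors and in 49.8% of all tested genes. An absolute log2 fold change of at least 1 was reached by 3 of the 32 receptors (EPHB3, KDR and FGFR3) and by 255 of the 12508 tested genes. EPHB3 and FGFR3 were low in counts. EPHB3 had -0.97 without control siRNA replicate 1, and FGFR3 had 0.98 without control siRNA replicate 3. With upper quartile scaling 4 receptors rose and 13 fell; that scaling put the higher share of all calls at 39.9%, against 50.5% in the main analysis.

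**Figure D2:**
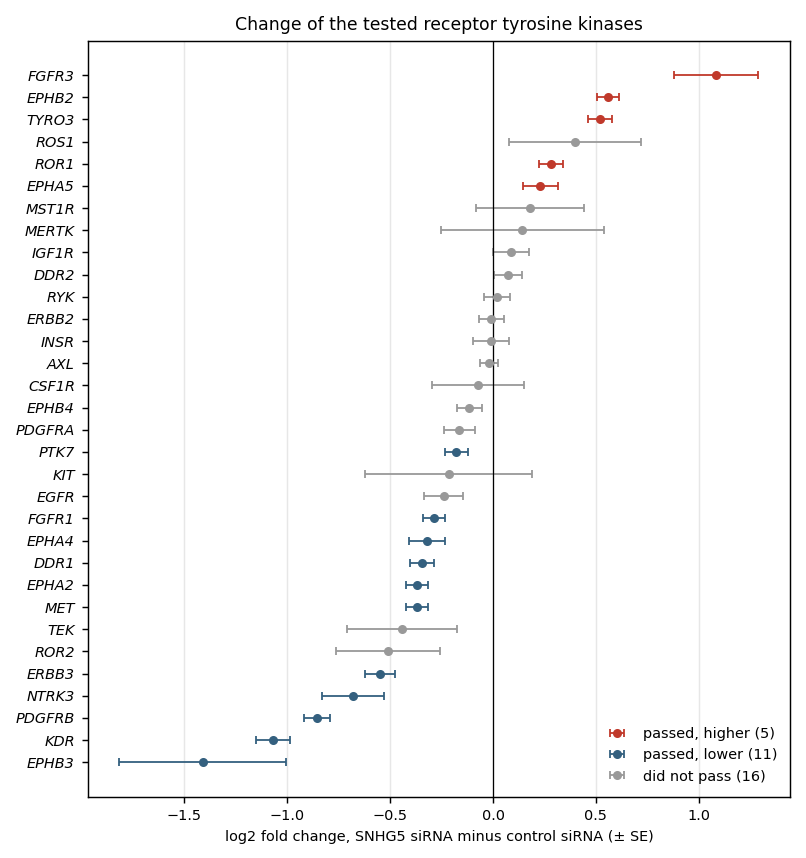
Log2 fold change (SNHG5 siRNA minus control siRNA) from edgeR with its SE for the 32 tested receptors, n = 3 libraries per group. The 11 receptors that fell run from EPHB3 at -1.41 to PTK7 at -0.18, and the 5 that rose from EPHA5 at 0.23 to FGFR3 at 1.08.

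The start regions of 4 receptors are shown as sequence: KDR and PDGFRB, which had the smallest adjusted p of the receptors that fell, EPHB2, which had the smallest of those that rose, and FGFR3, which rose most. They come from RefSeq (GRCh38.p14), run from 250 bases before to 50 bases after the annotated start, and are read along the gene's strand. Capitals mark GGGCGG, the GC box bound by SP1-type factors, and CCAAT, each on either strand. KDR is at chr4:55125546-55125845 (minus strand), PDGFRB at chr5:150155796-150156095 (minus strand), EPHB2 at chr1:22710588-22710887 (plus strand) and FGFR3 at chr4:1793043-1793342 (plus strand).
KDR: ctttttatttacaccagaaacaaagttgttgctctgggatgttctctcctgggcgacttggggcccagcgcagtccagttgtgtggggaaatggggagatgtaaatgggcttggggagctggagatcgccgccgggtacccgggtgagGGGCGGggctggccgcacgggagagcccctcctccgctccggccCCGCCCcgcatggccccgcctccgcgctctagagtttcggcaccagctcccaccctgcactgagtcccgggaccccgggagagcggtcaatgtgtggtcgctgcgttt
PDGFRB: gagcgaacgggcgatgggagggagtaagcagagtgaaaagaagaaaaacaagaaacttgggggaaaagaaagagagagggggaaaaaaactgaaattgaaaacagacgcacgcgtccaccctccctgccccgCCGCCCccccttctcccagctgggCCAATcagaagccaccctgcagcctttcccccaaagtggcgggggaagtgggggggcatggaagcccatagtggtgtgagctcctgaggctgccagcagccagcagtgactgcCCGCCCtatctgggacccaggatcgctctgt
EPHB2: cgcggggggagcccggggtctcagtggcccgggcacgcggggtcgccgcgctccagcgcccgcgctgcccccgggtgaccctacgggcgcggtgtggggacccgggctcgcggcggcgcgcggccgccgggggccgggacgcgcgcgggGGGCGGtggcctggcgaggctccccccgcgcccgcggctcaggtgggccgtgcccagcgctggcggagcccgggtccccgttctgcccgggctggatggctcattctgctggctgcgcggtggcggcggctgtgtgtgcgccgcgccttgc
FGFR3: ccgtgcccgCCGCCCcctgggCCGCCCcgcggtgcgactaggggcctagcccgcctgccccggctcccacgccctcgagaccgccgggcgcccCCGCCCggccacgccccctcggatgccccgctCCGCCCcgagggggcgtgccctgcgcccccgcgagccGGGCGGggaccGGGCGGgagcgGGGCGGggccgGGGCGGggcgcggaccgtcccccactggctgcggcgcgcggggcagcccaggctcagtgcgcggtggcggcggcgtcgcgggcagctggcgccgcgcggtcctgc

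KDR held 2 GC boxes and PDGFRB held 2 GC boxes and 1 CCAAT word. EPHB2 held 1 GC box and FGFR3 held 8. A TATA word (TATAAA), searched on either strand, was in none of these 4 windows. Neither was TGANTCA, a loose form of the AP-1 word in which N is any base. Windows were matched for 45 of the 48 receptors. Of those that fell, 9 had a window, and 8 of the 9 held a GC box, as did 4 of the 5 that rose and 23 of all 30 tested receptors with a window, against 45.0% of 35116 promoter windows. Those 35116 windows were not limited to tested genes, so they are not a matched background. The CCAAT word was in 3 of the 9 and in 1 of the 5 (8 of the 30, 34.6% of all windows). The TATA word was in 0 of each (1 of the 30, 11.5%), and the loose AP-1 word in 0 of the 9 and in 1 of the 5, TYRO3 (5 of the 30, 7.71%). It reads TGAATCA in TYRO3 and PDGFRA and TGATTCA in ERBB2, and the stricter TGAGTCA only in CSF1R and DDR2. A match of letters is a description and does not show that a factor binds.

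Of 4 tested receptors of the PDGF, CSF1 and KIT family PDGFRB fell, as did KDR, the 1 tested VEGF receptor. None rose, where 20.3% of all tested genes rose and 19.9% fell. So few receptors cannot show a trend of a family. PDGFRB, which binds PDGF-B and PDGF-D and is typical of mural and stromal cells (chromosome 5, 150113837 to 150155872, minus strand, GRCh38, GENCODE v29, as for all genes here), had 40.4, 40.5 and 45.2 CPM with SNHG5 siRNA, against 75.4, 78.8 and 73.8 CPM with control siRNA. Every SNHG5 siRNA library lay below every control library, a 1.81-fold fall (log2 fold change -0.85 with an SE of 0.06, edgeR adjusted p = 4.39e-09). KDR, the main signalling receptor of VEGF-A (chromosome 4, 55078259 to 55125595, minus strand), had 16.1, 13.9 and 15.9 CPM with SNHG5 siRNA and 34.0, 32.0 and 30.4 CPM with control siRNA. It was 2.10-fold lower (log2 fold change -1.07 with an SE of 0.08, edgeR adjusted p = 1.12e-08), again without overlap. PDGFRA, the receptor of PDGF-A and PDGF-C, had 26.5, 25.3 and 28.9 CPM with SNHG5 siRNA and 29.2, 29.7 and 31.5 CPM with control siRNA. Its groups lay apart too, but the difference did not pass (log2 fold change -0.16, edgeR adjusted p = 0.0968), although it passed with upper quartile scaling (-0.20) and after removal of a trend with length (-0.17) or with GC content (-0.21). FLT1 and FLT4, the other VEGF receptors, were at 0 counts in all 6 libraries, which allows up to 0.136 to 0.165 CPM. CSF1R, the receptor of CSF1, had 2.34 ± 0.537 CPM with SNHG5 siRNA and 2.47 ± 0.576 CPM with control siRNA, and KIT, the receptor of stem cell factor, had 0.562 ± 0.206 CPM with SNHG5 siRNA and 0.648 ± 0.221 CPM with control siRNA. Both overlapped between groups.

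Markers of other cell types were read beside these falls. Theca and stroma markers (8 genes, CYP17A1 and LUM at 0) summed to 4578 to 4868 CPM with SNHG5 siRNA and 5875 to 6234 CPM with control siRNA, nearly all of it COL1A1, and 8 epithelial markers summed to 2499 to 2775 CPM with SNHG5 siRNA and 3371 to 3504 CPM with control siRNA, nearly all of it KRT18. Both sums were lower with SNHG5 siRNA, but the members went both ways. Of 5 tested theca and stroma markers COL1A1 (-0.38) and COL3A1 (-0.21) fell, TAGLN (1.04) rose, and ACTA2 and PDGFRA did not pass. Of 4 tested epithelial markers KRT18 (-0.43) fell, KRT8 (0.17) rose, and KRT19 and CDH1 did not pass, and EPCAM was near 0. The part of these genes in the falls of PDGFRB, MET, ERBB3, EPHA2 and DDR1 was not tested. Endothelial markers (8 genes) summed to 5.74 to 6.91 CPM with SNHG5 siRNA and 6.38 to 7.77 CPM with control siRNA. CDH5 and CLDN5 were at 0 in every library, ROBO4, VWF and ESAM were at testable levels and did not pass, and the part of these markers in the fall of KDR was not tested. Of 5 mast cell markers 4 were at 0 and CPA3 was not (3.82 to 4.43 CPM with SNHG5 siRNA and 5.32 to 5.62 CPM with control siRNA), and of 8 macrophage markers 4 were at 0 (27.5 to 29.1 CPM with SNHG5 siRNA and 22.3 to 26.6 CPM with control siRNA, mostly CD68). Neural markers summed to 136.3 to 146.7 CPM with SNHG5 siRNA and 136.4 to 149.2 CPM with control siRNA.

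In the EGF receptor family ERBB3 fell, and EGFR and ERBB2 did not pass. ERBB3, which binds neuregulin and has little kinase activity of its own (chromosome 12, 56076799 to 56103505, plus strand), had 25.2, 24.8 and 28.8 CPM with SNHG5 siRNA and 38.5, 38.0 and 39.0 CPM with control siRNA. The fall was 1.46-fold (edgeR adjusted p = 9.61e-06). EGFR, which binds EGF, TGF-alpha and amphiregulin, had 188.5, 132.7 and 191.1 CPM with SNHG5 siRNA and 218.7, 188.1 and 198.0 CPM with control siRNA. SNHG5 siRNA replicate 2 held the lowest value: the log2 fold change was -0.24 (edgeR adjusted p = 0.0529) with all libraries and -0.08 (adjusted p = 0.168) without that library. It passed without SNHG5 siRNA replicate 1 (-0.32), SNHG5 siRNA replicate 3 (-0.33) or control siRNA replicate 2 (-0.29), and with all libraries also under upper quartile scaling (-0.28), without the filter on low counts (-0.23) and after removal of a length trend (-0.24, adjusted p = 0.00490). ERBB2, the partner receptor without a known ligand, had 65.9, 62.5 and 71.5 CPM with SNHG5 siRNA and 69.1, 67.0 and 64.8 CPM with control siRNA, and the groups overlapped (log2 fold change -0.01, edgeR adjusted p = 0.925). Its gene overlaps MIEN1 and PGAP3 on the other strand, which held 3699 and 537 counts over the 6 libraries where ERBB2 held 8044. Whether counting used strand is not stated.

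The insulin receptor INSR and the IGF receptor IGF1R did not pass. INSR had 18.4, 16.6 and 20.0 CPM with SNHG5 siRNA and 19.2, 18.7 and 17.5 CPM with control siRNA. IGF1R had 28, 24.1 and 30.3 CPM with SNHG5 siRNA and 27.8, 24.3 and 25.5 CPM with control siRNA. The log2 fold changes were -0.01 (SE 0.09) and 0.09 (SE 0.09), and both genes overlapped between groups.

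Of the FGF receptors FGFR3 rose and FGFR1 fell. FGFR3 (chromosome 4, 1793293 to 1808872, plus strand) was 2.12-fold higher at a low level, with 3.43, 2.67 and 3.50 CPM with SNHG5 siRNA and 1.66, 1.58 and 1.26 CPM with control siRNA (edgeR adjusted p = 3.55e-04). Its counts were 76, 53 and 68 counts with SNHG5 siRNA, against 34, 32 and 23 counts with control siRNA. FGFR1 had 138.9, 124.2 and 128.9 CPM with SNHG5 siRNA and 159.6, 160.9 and 157.6 CPM with control siRNA. It fell by 0.29 on the log2 scale (edgeR adjusted p = 3.46e-04), with no overlap. Per length FGFR1 stood above FGFR3 in both groups: FGFR1 had 12.5 ± 0.792 FPKM with SNHG5 siRNA and 14.4 ± 0.268 FPKM with control siRNA, and FGFR3 had 0.681 ± 0.0756 FPKM with SNHG5 siRNA and 0.286 ± 0.0131 FPKM with control siRNA. FGFR1 overlaps LETM2 on the other strand, which held 1057 counts over the 6 libraries where FGFR1 held 17449. FGFR2 had 2 counts over the SNHG5 siRNA libraries and 2 over the control libraries, and FGFR4 had 2 and 1 in those groups.

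**Figure D3:**
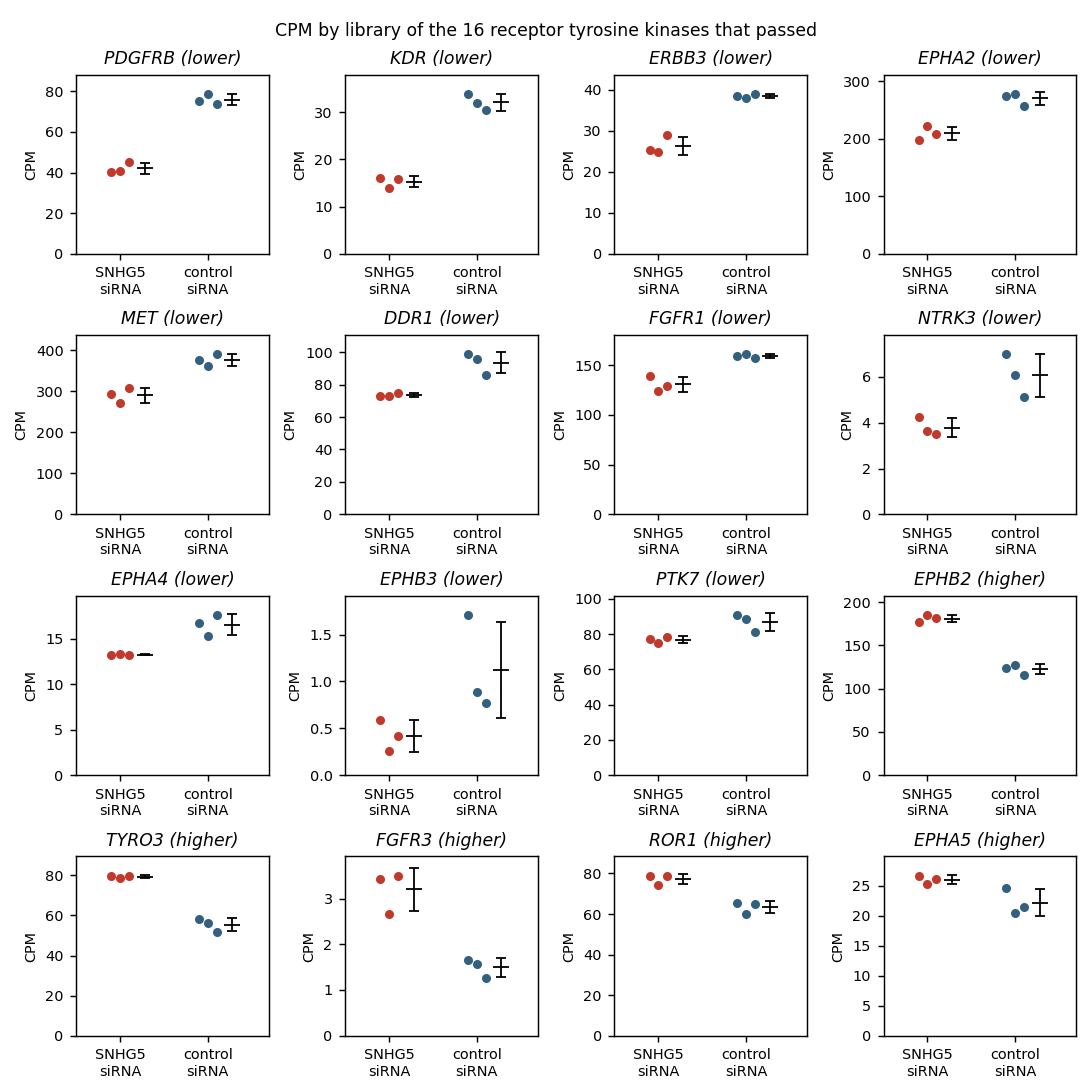
CPM in each library for the 16 receptors that passed (SNHG5 siRNA red and left, control siRNA blue and right), with the mean and SD of 3 libraries beside the points and axes from 0. In all 16 the groups lie apart, which their selection by p favours. Without that selection they did so in 18 of the 32 tested receptors and in 49.8% of all tested genes. PDGFRB and KDR show wide gaps among the falls, and FGFR3, EPHB2 and TYRO3 among the rises, while those of EPHA5 and PTK7 are narrow.

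Ephrin receptors bind membrane-held ephrins on neighbouring cells and guide cell sorting and repulsion. Of 6 that could be tested, EPHB2 and EPHA5 rose, EPHA2, EPHA4 and EPHB3 fell, and EPHB4 did not pass. EPHB2 (chromosome 1, 22710839 to 22921500, plus strand) had 176.4, 185.0 and 181.1 CPM with SNHG5 siRNA and 124.2, 127.5 and 116.2 CPM with control siRNA. This was a 1.47-fold rise (log2 fold change 0.56 with an SE of 0.05, edgeR adjusted p = 1.32e-07), with the lowest SNHG5 siRNA library above the highest control. EPHA2 had 198.3, 221.0 and 207.8 CPM with SNHG5 siRNA and 274.7, 277.9 and 257.1 CPM with control siRNA, a 1.29-fold fall (edgeR adjusted p = 2.34e-05). EPHA4 had 13.2, 13.3 and 13.2 CPM with SNHG5 siRNA and 16.8, 15.3 and 17.6 CPM with control siRNA, and it fell by 0.32 on the log2 scale (edgeR adjusted p = 0.00590). EPHA5 had 26.7, 25.3 and 26.1 CPM with SNHG5 siRNA and 24.7, 20.4 and 21.5 CPM with control siRNA. It passed narrowly (log2 fold change 0.23, edgeR adjusted p = 0.0351), and the call ended in 9 of 16 alternatives, among them without SNHG5 siRNA replicate 1 (0.21) or 3 (0.23) and without control siRNA replicate 2 (0.17) or 3 (0.21). EPHB3 was near the limit of detection, with 13, 5 and 8 counts with SNHG5 siRNA and 35, 18 and 14 counts with control siRNA. Its log2 fold change was -1.41 with an SE of 0.40 (edgeR adjusted p = 0.00930), and -0.97 (adjusted p = 0.104) without control siRNA replicate 1. EPHB4 had 68.1, 74.6 and 78.4 CPM with SNHG5 siRNA and 80.1, 82.9 and 76.1 CPM with control siRNA. Its groups overlapped (edgeR adjusted p = 0.149), and its gene overlaps SLC12A9 on the other strand, which held 4857 counts over the 6 libraries where EPHB4 held 9221.

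In the TAM family, which binds GAS6 and protein S, TYRO3 rose while AXL and MERTK did not pass. TYRO3 (chromosome 15, 41557675 to 41583586, plus strand) had 79.7, 78.8 and 79.9 CPM with SNHG5 siRNA and 58.1, 56.1 and 51.8 CPM with control siRNA, a 1.44-fold rise (edgeR adjusted p = 1.20e-06). AXL had 1614, 1551 and 1620 CPM with SNHG5 siRNA and 1661, 1587 and 1602 CPM with control siRNA. Its groups overlapped, and the log2 fold change was -0.02 with an SE of 0.04 (edgeR adjusted p = 0.764). MERTK had 0.620 ± 0.256 CPM with SNHG5 siRNA and 0.559 ± 0.121 CPM with control siRNA.

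MET, the receptor of hepatocyte growth factor (chromosome 7, 116672390 to 116798386, plus strand), had 292.1, 270.3 and 307.5 CPM with SNHG5 siRNA and 375.4, 360.1 and 389.5 CPM with control siRNA. It fell 1.29-fold (edgeR adjusted p = 2.45e-05), with no overlap. MST1R, its relative that binds macrophage-stimulating protein, had 1.65 ± 0.492 CPM with SNHG5 siRNA and 1.47 ± 0.305 CPM with control siRNA and did not pass. Of the discoidin domain receptors, which sense collagen, DDR1 fell and DDR2 did not pass. DDR1 had 73.2, 72.8 and 74.7 CPM with SNHG5 siRNA and 98.6, 95.5 and 86.1 CPM with control siRNA, a fall of 0.35 on the log2 scale (edgeR adjusted p = 1.32e-04). DDR2 had 406.2, 330.4 and 404.4 CPM with SNHG5 siRNA and 384.7, 340.2 and 359.9 CPM with control siRNA. Its log2 fold change was 0.07 (edgeR adjusted p = 0.418) with all libraries and 0.17 (adjusted p = 0.00167) without SNHG5 siRNA replicate 2, where it passed.

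Of the WNT-linked receptors, ROR1 rose, PTK7 fell, and ROR2 and RYK did not pass. ROR1, a WNT5A receptor, had 78.9, 74.2 and 78.5 CPM with SNHG5 siRNA and 65.6, 60.0 and 64.8 CPM with control siRNA, a rise of 0.28 on the log2 scale (edgeR adjusted p = 7.60e-04). PTK7, a pseudokinase of planar cell polarity, had 77.2, 74.8 and 78.5 CPM with SNHG5 siRNA and 90.9, 88.4 and 81.3 CPM with control siRNA. It fell by 0.18 (edgeR adjusted p = 0.0193), and this call ended in 6 of 16 alternatives, including without SNHG5 siRNA replicate 1 (-0.18), control siRNA replicate 1 (-0.14) or control siRNA replicate 2 (-0.17). RYK, also a pseudokinase, had 66.2, 66.2 and 71.4 CPM with SNHG5 siRNA and 61.8, 68.7 and 70.5 CPM with control siRNA, with overlap. ROR2 had 1.32 ± 0.369 CPM with SNHG5 siRNA and 1.86 ± 0.223 CPM with control siRNA, without overlap and without passing (edgeR adjusted p = 0.114). MUSK, which clusters acetylcholine receptors in muscle, had 2, 3 and 2 counts with SNHG5 siRNA and 0 in each control library, at or under the limit of detection throughout.

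NTRK3, the receptor of neurotrophin-3, had 4.24, 3.62 and 3.50 CPM with SNHG5 siRNA and 6.99, 6.11 and 5.11 CPM with control siRNA. It was lower in every SNHG5 siRNA library (log2 fold change -0.68 with an SE of 0.15, edgeR adjusted p = 0.00134). In the authors' FPKM the difference did not pass (-0.07 on the log2 scale with 1 added and -0.37 with 0.1 added). The FPKM themselves were 0.0766 ± 0.0126 with SNHG5 siRNA and 0.129 ± 0.0234 with control siRNA, without overlap. The added values were thus near or above them. TEK, the angiopoietin receptor, had 1.16 ± 0.216 CPM with SNHG5 siRNA and 1.56 ± 0.400 CPM with control siRNA. ROS1, known from gene fusions in tumours, had 1.08 ± 0.120 CPM with SNHG5 siRNA and 0.815 ± 0.322 CPM with control siRNA. Neither passed. The 16 receptors below testable levels were FLT1, FLT3, FLT4, FGFR2, FGFR4, NTRK2, MUSK, TIE1, EPHA1, EPHA3, EPHA7, EPHB1, EPHB6, RET, LTK and ALK. Of these, 6 had 0 counts in every library, and the highest, EPHB1, had 39 counts over the 6 libraries.

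The ligands come from a list of 68 genes, of which 44 were at testable levels, 7 rose and 15 fell. Thus 50% of the tested ligands passed, against 40.2% of all tested genes, and their median log2 fold change was -0.10, against -0.01. Most of the PDGF and VEGF genes named below fell, where 19.9% of all tested genes fell. Some of them were named after their values were seen. PDGFB, a ligand of PDGFRB, had 5.60, 7.85 and 5.25 CPM with SNHG5 siRNA and 8.70, 8.18 and 8.25 CPM with control siRNA (log2 fold change -0.43, edgeR adjusted p = 0.0170). PDGFD, which also binds PDGFRB, fell by 0.40 and PDGFA by 0.45 on the log2 scale. PDGFC, with 194.3 ± 3.81 CPM with SNHG5 siRNA and 179.8 ± 8.83 CPM with control siRNA, had 0.11 and did not pass. VEGFA, the main ligand of KDR, had 74.2, 64.1 and 80.1 CPM with SNHG5 siRNA and 105.4, 89.6 and 93.8 CPM with control siRNA, a fall of 0.40 (edgeR adjusted p = 2.95e-04). VEGFC, which binds KDR and FLT4, fell by 0.49. PGF, which binds FLT1, had 0.489 ± 0.0557 CPM with SNHG5 siRNA and 1.46 ± 0.538 CPM with control siRNA, a fall of 1.58 (edgeR adjusted p = 0.00114). At this low level the fall of PGF rests on few counts. VEGFB, another FLT1 ligand, had -0.07 and did not pass.

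The ephrin-B genes moved in both directions. EFNB1 had 20.5 ± 0.398 CPM with SNHG5 siRNA and 30.9 ± 1.41 CPM with control siRNA and fell by 0.59 on the log2 scale, and EFNB3 fell by 0.56. EFNB2 rose, with 20.8 ± 0.395 CPM with SNHG5 siRNA and 17.3 ± 0.729 CPM with control siRNA (edgeR adjusted p = 0.0135). FGF1, which binds all FGF receptors, had 5.42, 6.79 and 4.94 CPM with SNHG5 siRNA and 1.42, 1.92 and 1.76 CPM with control siRNA. Its log2 fold change was 1.75 with an SE of 0.18 (edgeR adjusted p = 4.80e-07), without overlap. FGF5 rose by 0.77, while FGF2 had -0.09 and did not pass.

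Of the EGF family, EGF fell by 0.89 on the log2 scale and NRG1, a ligand of ERBB3, by 0.23, whereas TGFA (0.44) and BTC (0.50) rose. GDNF, which signals through RET, fell by 1.08, and RET had 0 counts in every library. GAS6, the ligand of AXL and TYRO3, had 676.7 ± 27.3 CPM with SNHG5 siRNA and 667.5 ± 20.2 CPM with control siRNA and did not pass, nor did PROS1 (0.02). WNT5A fell by 0.76, with 115.6 ± 2.10 CPM with SNHG5 siRNA and 196.2 ± 11.5 CPM with control siRNA, while ROR1 rose. HGF, the ligand of MET, had 0 counts in all 6 libraries.

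**Figure D4:**
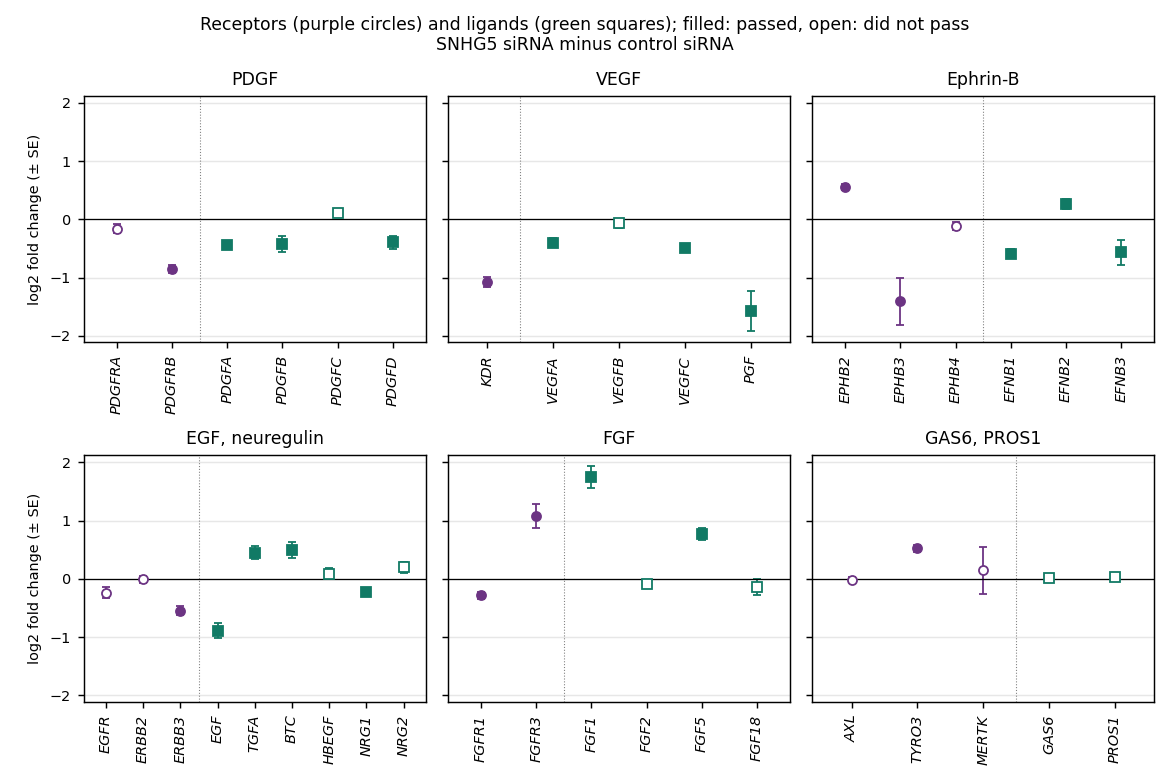
Log2 fold change (SNHG5 siRNA minus control siRNA, with SE) of receptors (circles, left of the dotted line) and ligands (squares) in 6 groups, n = 3 libraries per group; filled symbols passed and open symbols did not. PDGFRB and 3 of 4 PDGF genes lie below 0 and passed, as do KDR and 3 of 4 VEGF genes, where 19.9% of all tested genes fell. PDGFA, PDGFC and VEGFB were named after their values were seen, so these tallies are not a test. FGF1, FGF5 and FGFR3 lie above 0, and TYRO3 is the one filled symbol of the GAS6 panel.

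Genes that act with or after the receptors were read from 7 lists, against 40.2% of all tested genes that passed. Of 12 tested co-receptors 5 rose and 2 fell (58.3% passed). SDC1, a heparan sulfate proteoglycan that presents growth factors, rose, with 236.9 ± 7.43 CPM with SNHG5 siRNA and 153.2 ± 9.15 CPM with control siRNA, and SDC4 rose by 0.45 on the log2 scale. GFRA1, the GDNF co-receptor, fell by 0.71 and LRP4, the agrin receptor that partners MUSK, by 0.47. Of 29 tested adaptors 6 rose and 6 fell (41.4% passed). GRB10, which binds insulin and IGF receptors, rose by 0.55 and the insulin receptor substrate IRS1 by 0.53, while SH2B2 (-0.81) and PIK3R3 (-0.62) fell. Of 23 tested genes of the RAS and PI3K core 5 rose and 4 fell (39.1% passed). The kinase gene AKT1 rose by 0.50, and the PI3K subunits PIK3CD (-0.91) and PIK3CB (-0.41) and the scaffold KSR1 (-0.58) fell.

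Genes that dampen receptors gave 4 higher and 7 lower of 25 tested. SOCS2, a feedback inhibitor of cytokine and growth hormone signalling, had 9.12, 10.6 and 11.6 CPM with SNHG5 siRNA and 26.0, 27.3 and 27.1 CPM with control siRNA, a 2.58-fold fall (edgeR adjusted p = 1.43e-09). RNF41, a ubiquitin ligase for ERBB3, fell by 0.44 on the log2 scale, LRIG1, which restrains EGF receptors, by 0.42, and SOCS3 by 0.34. Of 17 tested ERK response genes 3 rose and 5 fell. The transcription factor gene ETV4 rose by 0.72 and the phosphatase gene DUSP5 by 0.67, while the cyclin gene CCND1 (-0.71) and the receptor signalling inhibitor SPRY1 (-0.51) fell. Of 10 receptor tyrosine kinase genes outside the 48, 4 were tested, and ERBB4 (-0.91) and LMTK2 (-0.25) fell. Non-receptor tyrosine kinases gave 2 higher and 5 lower of 17 tested. TXK (-0.94), PTK2B (-0.51) and LYN (-0.37) fell, and CSK, the kinase that restrains SRC, rose by 0.49.

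The title of the study names miR-92a-3p, so its match in the 3′ untranslated regions of the receptors is shown. The mature sequence (RefSeq, GRCh38.p14) has its seed, bases 2 to 8, in capitals, and the seed pairs with GTGCAAT. That word was in an annotated 3′ untranslated region (GENCODE v29) of 6 of the 48 receptors (12.5%) and of 13.2% of 18789 named genes. Sites of the 5 tested receptors that hold it are given with the word in capitals and 11 bases on either side.
miR-92a-3p: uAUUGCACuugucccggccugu
TYRO3: cccaggctggaGTGCAATtgcgcgatctg
EPHA4: acctaccaagtGTGCAATgtgatggaacc
PDGFRA: accctcaaaacGTGCAATggcttggagca
INSR: actttcagggaGTGCAATggaaggtgaat
AXL: tagactattagGTGCAATttcaaggttct

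The TYRO3 site is at chr15:41579809-41579815, plus strand, in 1 of 4 annotated transcripts with such a region. The EPHA4 site is at chr2:221564332-221564338, minus strand, there only in a transcript annotated for nonsense-mediated decay. The PDGFRA site is at chr4:54265067-54265073, plus strand, and the INSR site at chr19:7112816-7112822, minus strand, each in 1 of 3 such transcripts. The PDGFRA gene runs on to 54298247, so its site lies well before the end of the gene. AXL holds 3 matches, each in 1 of 3 such transcripts, and the one shown is at chr19:41261489-41261495, plus strand. The log2 fold changes of these genes were 0.52 (TYRO3), -0.32 (EPHA4), -0.16 (PDGFRA), -0.01 (INSR) and -0.02 (AXL), so 1 rose, 1 fell and 3 did not pass. NTRK2, the other receptor with the word, had 0 counts in every library. KDR and PDGFRB do not hold this word in an annotated 3′ untranslated region. A match does not show that the miRNA binds there.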

How the data were processed

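RNA-seq of KGN cells was analysed from 2 deposited tables, with 6 libraries and 0 columns of other samples. The deposited counts are whole numbers per gene, not normalised by the authors, and the deposited FPKM were scaled by the authors to gene length and library size. Trimmomatic and GRCh38 are named in the submitters' processing notes. The aligner and the counting program are not given in the sources used here.

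Library sizes were TMM-scaled (edgeR 4.0.16, R 4.3.3), genes were kept by filterByExpr, and the 2-sided quasi-likelihood test compared SNHG5 siRNA with control siRNA over the whole table, with Benjamini-Hochberg adjustment. CPM use the scaled library sizes. SE is the log2 fold change over the root of F. An exact permutation test of 3 against 3 cannot go below 0.1, so none is given.

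The receptors and gene lists were chosen with earlier results of these data known. Values by library are given for receptors that passed or averaged at least 10 CPM. From each list up to 4 passing genes by absolute log2 fold change are named, and ligands of receptors that passed. PDGFA, PDGFC, VEGFB, TGFA and BTC were named after their values were seen.

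Gene positions and 3′ untranslated regions are from GENCODE v29 (19261 of 20030 names matched). Alternatives were RLE and upper quartile scaling, no filter, a mean CPM of at least 1, DESeq2 1.42.0, limma 3.58.1 on log2 of FPKM plus 1 or 0.1, the replicate block, removal of length or GC trends, and each library left out.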

Additional observations from a re-analysis of the deposited data

How the results depend on the processing

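Over 16 alternatives, 0 of the 16 receptors that passed changed sign, and 12 passed in every one; EPHA5, PTK7, NTRK3 and EPHB3 did not. With 1 library left out 4 to 6 receptors rose, 9 to 12 fell and 3991 to 5608 of all genes passed. Of receptors that did not pass, EGFR, PDGFRA and DDR2 passed in some alternative. Of receptors that did not pass, 9 changed sign in some alternative, and the cause was not tested. In FPKM plus 1 and plus 0.1, AXL had 0.0467 and 0.0468, EPHB4 0.0233 and 0.0246, ERBB2 0.0928 and 0.102, and INSR 0.0146 and 0.0210. With the GC trend removed AXL had 0.00860, ERBB2 0.0524 and RYK -0.0525, and with upper quartile scaling RYK had -0.0210. With 1 library left out the log2 fold change was -0.0323 to 0.00350 for AXL, -0.260 to 0.0647 for CSF1R, -0.0606 to 0.0369 for ERBB2, -0.0743 to 0.0550 for INSR, -0.505 to 0.0374 for KIT, -0.214 to 0.352 for MERTK, -0.101 to 0.366 for MST1R and -0.0358 to 0.0579 for RYK. Same-numbered libraries deviated together only weakly (correlations of 0.0463, 0.130 and 0.0264), against -0.116 to 0.0843 between differently numbered ones. Such weak values cannot settle whether the numbers pair the samples. With the replicate block 5 receptors rose and 12 fell, EGFR being added (-0.25, edgeR adjusted p = 0.00101), and 5714 genes passed. Receptors near 1 CPM rest on few counts, which limits what difference was detectable.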
